A study of Drosophila melanogaster with 3 samples.

Results

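Of the 8424 topi-eGFP peaks that the authors kept by irreproducible discovery rate (IDR) in the dm6 build, 817 were autosomal intergenic peaks near genes. They were taken by position alone: the summit lay on a chromosome other than X and 4, inside no annotated gene, and 501 to 5000 bp from the closest annotated transcription start site of any gene, with transposable elements left out. The 817 members were 12.2% of the 6697 autosomal IDR peaks. The data come from chromatin immunoprecipitation and sequencing (ChIP-seq) with an anti-GFP antibody in whole Drosophila melanogaster white prepupae, males and females together, from a transgenic line in which GFP is fused to the C terminus of topi. The series has 3 libraries of 1 group, numbered as biological replicates 1 to 3, and no second condition. All libraries share the tag and 1 control alignment, and no library of untagged animals was analysed here, so binding of topi and signal that does not need topi cannot be told apart. Whole animals were used, so the tissue in which a peak arose cannot be told apart either.

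Topi carries zinc fingers and belongs to the meiotic arrest complex of the testis, without which spermatocytes fail to switch on their genes. Intergenic DNA close to genes holds many of the enhancers of the fly genome, which act on a promoter from a distance and often carry binding sites for several factors. At the white prepupa stage, a pulse of the steroid hormone ecdysone starts metamorphosis, larval tissues begin to die, and imaginal discs turn into adult structures.

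The DNA under the 5 strongest members is shown first, to give the letters behind the base composition measured over all members. Each line gives 121 bases of the plus strand of dm6, centred on the summit, from the RefSeq copy of that assembly. Capitals mark runs of at least 6 bases made only of A and T, which lay on the summit only in the COX7AL2 line. Each line is named by the gene with the closest start site.
CG31668, chr2L:2202353-2202473, plus strand: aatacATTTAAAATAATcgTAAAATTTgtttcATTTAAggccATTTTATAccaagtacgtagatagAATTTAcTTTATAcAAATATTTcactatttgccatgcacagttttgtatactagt
CG43245, chr3L:10776519-10776639, plus strand: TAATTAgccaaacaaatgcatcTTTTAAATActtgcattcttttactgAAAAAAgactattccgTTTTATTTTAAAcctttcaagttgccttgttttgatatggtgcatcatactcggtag
DNAlig3, chr3R:12403073-12403193, plus strand: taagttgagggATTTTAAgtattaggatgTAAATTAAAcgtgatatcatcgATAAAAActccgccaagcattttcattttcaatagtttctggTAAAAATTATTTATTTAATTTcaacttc
kay, chr3R:29763287-29763407, plus strand: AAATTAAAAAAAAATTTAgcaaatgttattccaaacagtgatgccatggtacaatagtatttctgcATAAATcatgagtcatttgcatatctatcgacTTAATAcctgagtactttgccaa
COX7AL2, chr2L:2199300-2199420, plus strand: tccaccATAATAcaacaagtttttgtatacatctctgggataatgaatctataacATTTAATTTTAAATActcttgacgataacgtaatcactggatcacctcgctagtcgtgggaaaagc

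A string that recurred beside the summits is shown next, because its strand was tied to the side of the summit on which it lay. These are 10 sites of TCAGTGCA in members of high pooled signal, each in 40 bases of dm6 on the strand that carries TCAGTGCA, with the string in capitals. In each of the 10 the string read away from the summit, that is, its first base was the one nearer to the summit. Most have a stretch of T and C before it.
E(spl)malpha-BFM, chr3R:26009087-26009126, plus strand: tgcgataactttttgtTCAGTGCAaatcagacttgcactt
lncRNA:CR45937, chr3L:18236089-18236128, plus strand: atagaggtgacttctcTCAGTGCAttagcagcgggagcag
lncRNA:CR44853, chr2L:14552256-14552295, minus strand: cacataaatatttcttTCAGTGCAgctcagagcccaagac
lncRNA:CR44723, chr3L:11325788-11325827, minus strand: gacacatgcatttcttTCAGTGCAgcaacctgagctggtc
CG18404, chr3R:30257873-30257912, plus strand: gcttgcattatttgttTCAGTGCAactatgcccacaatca
Cpr72Eb, chr3L:16364462-16364501, plus strand: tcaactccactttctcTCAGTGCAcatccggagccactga
CG17121, chr3R:23048740-23048779, minus strand: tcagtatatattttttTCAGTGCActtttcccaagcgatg
lncRNA:CR45251, chr3L:11353116-11353155, minus strand: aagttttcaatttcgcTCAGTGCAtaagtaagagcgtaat
vers, chr3L:12114279-12114318, minus strand: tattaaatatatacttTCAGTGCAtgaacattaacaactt
aop, chr2L:2180158-2180197, minus strand: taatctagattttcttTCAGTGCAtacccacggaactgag

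The strongest members stood high in each library's list. Signal is the authors' score of a peak against the control and is not scaled between libraries, so ranks within a list are compared. The member of highest pooled signal (dm6 2L, 2202060 to 2202641) lay between COX7AL2 and CG31668, 3753 bp from the start of CG31668. Replicates 1, 2 and 3 gave it signals of 667, 1022 and 1213 and placed it 18, 11 and 12 in their lists. A second member of the same 5808 bp gap, 1448 bp upstream of COX7AL2, had 1460 as its pooled signal and stood at 92, 91 and 109. The gap therefore held 2 of the 5 strongest members, and neither gene had an IDR summit within 500 bp of its own start sites. The second strongest member (3L, 10776320 to 10776794) lay 3180 bp past the end of CG43245, at a pooled signal of 2197, and stood at 32, 30 and 35.

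The third (3R, 12402912 to 12403377) had a pooled signal of 2041 and covered most of a gap of only 437 bp. That gap separates the converging genes Sol1 and Cyp9f2, and the closest start site, 1294 bp away, was that of DNAlig3, which encodes a DNA ligase. The fourth lay 2648 bp upstream of kay, the fly Fos gene and thus a subunit of the AP-1 transcription factor. Replicates 1, 2 and 3 gave it signals of 382, 488 and 654. The printed 121 bases of this kay member hold the AP-1 motif TGANTCA, starting 14 bp to the right of the summit. Over all members 5.39% had this motif within 100 bp of the summit, against 4.19% of weaker peaks under the same rule (log2 odds ratio 0.38, 95% bounds -0.14 and 0.90, adjusted exact p = 0.555).

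A further 10 members had a pooled signal over 1000, and those beside genes of known role come first. One (2L, summit 715562) was 579 bp upstream of ds, which encodes the atypical cadherin Dachsous. Its pooled signal was 1326, and its ranks were 165, 103 and 116. One was 1792 bp upstream of E(spl)malpha-BFM, a Notch target of the Enhancer of split complex, at 1206. On 2R, one lay 1421 bp upstream of lola, which encodes a family of BTB zinc-finger proteins, at 1142. The gap between lncRNA:CR45234, whose start was the closest, and hid, a pro-apoptotic gene that ecdysone switches on in dying larval tissue, held 4 members, with pooled signals of 1070, 737, 418 and 316. Replicates 1, 2 and 3 gave the strongest of these 4 signals of 262, 410 and 400. The rest of the 15 members over 1000 were closest to lncRNA:CR43650, Gr93d, yip3, CG13898, lncRNA:CR45937 and tRNA:Lys-CTT-1-11, with signals between 1226 and 1016. In each replicate all 15 ranked 281 or better.

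**Figure D1:**
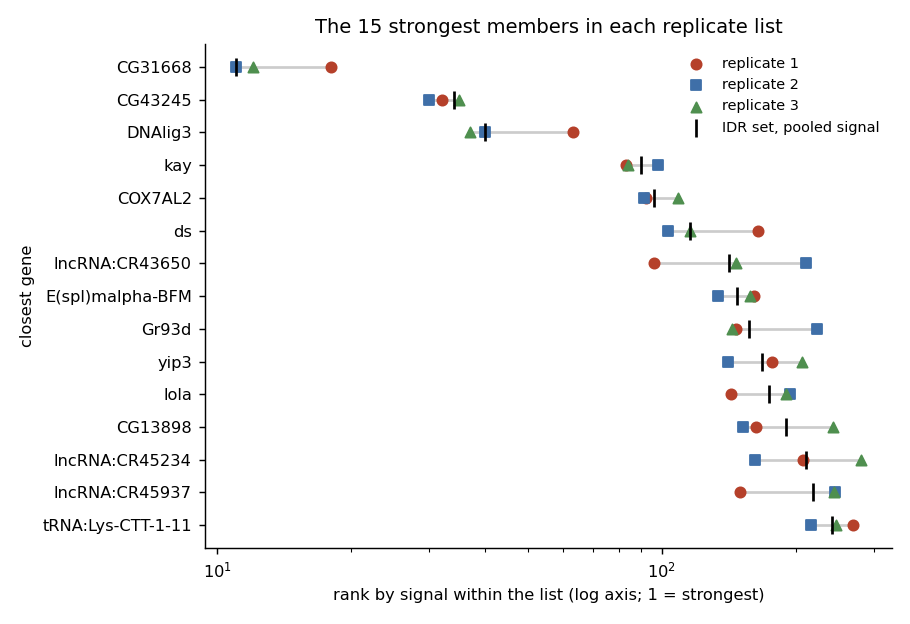
Rank by signal of the 15 members of highest pooled signal (rows, named by the gene with the closest start site) in each replicate's own list (points) and in the IDR set by pooled signal (black bars), on a log axis where 1 is the strongest peak. The CG31668 member ranked 18, 11 and 12, and the lowest rank of any of the 15 was 281, at lncRNA:CR45234 in replicate 3.

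Over the 817 members the pooled signal ran from 93.8 to 2903, with a median of 181, close to the median of 180 over the other 5880 autosomal IDR peaks. The strongest 25% of the IDR set held 24.1% of members and 24.8% of the other autosomal peaks (log2 odds ratio -0.05, with 95% bounds of -0.30 and 0.19; two-sided Fisher's exact test on counts of peaks, adjusted p = 0.697). Here and below, leaving out a replicate keeps only IDR peaks found among the 8424 strongest peaks of both other replicates. The IDR calls and the pooled signal still rest on all 3 libraries. With replicate 2 or replicate 3 left out in this way, the members fell below the others (log2 odds ratios -0.32 and -0.38, adjusted exact p = 0.035 and 0.0209). Both cases keep only peaks found in replicate 1, which held 92.0% of members and 79.6% of the others. Signals of the same member in 2 replicates correlated with Spearman's rho of 0.80 for replicates 1 and 2, 0.83 for 1 and 3 and 0.84 for 2 and 3, over 796 to 807 members that share libraries and a control. The intervals and p-values over peaks treat peaks as independent, which neighbouring peaks need not be, and cover counting error only. At the edges of the rule, Cpr72Eb (501 bp, signal 575) and CG43815 (508 bp, 109) lay just inside and GstD1 (500 bp, 172) and CG10479 (499 bp, 124) just outside. At the far edge CG13481 (4994 bp, 238) lay inside and lncRNA:CR46197 (5043 bp, 107) outside.

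The members were found again in the replicates more often than other autosomal IDR peaks, and the difference lay in replicate 1. A peak counted as supported when at least 50% of it or of a replicate peak overlapped, among the 8424 strongest peaks of that replicate. Of the members, 601 (73.6%) were supported in all 3 replicates, against 64.9% of the others (log2 odds ratio 0.59, 95% bounds 0.35 and 0.83, adjusted exact p = 1.87e-06). Replicate 1 held 92.0% of members and 79.6% of the others (log2 odds ratio 1.56, 95% bounds 1.19 and 1.94, adjusted exact p = 3.18e-19). Replicate 2 held 84.1% and 85.3%, and replicate 3 held 89.2% and 88.9%. Without replicate 1 the difference did not pass the test: 77.6% of members and 77.4% of the others were supported in both remaining replicates (log2 odds ratio 0.020, adjusted exact p = 0.929). This ratio was 0.87 on leaving out replicate 2 and 0.74 on leaving out replicate 3. Across the 3 replicates the support of members averaged 88.5% ± 4.0, against 84.6% ± 4.6 for the others (SD, n = 3, exact permutation test, two-sided, p = 0.40, where 0.10 is the smallest the design allows).

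The IDR set was divided into 4 equal classes of signal, and the difference in support was tested in each. In the strongest class nearly all peaks were supported in all 3 replicates, 98.5% of members and 97.8% of the others (log2 odds ratio 0.54, 95% bounds -1.18 and 2.26). In the next class the shares were 95.4% and 89.2%, in the one after it 75.6% and 60.9%, and in the weakest 21.9% and 11.4%, each past the threshold of 0.05 after adjustment (exact p = 0.00626, 0.000111 and 0.00029). Peaks within 500 bp of a start site were supported in 60.8% of cases, intron peaks in 68.8%, and intergenic peaks over 5000 bp from a start site in 69.5%. The difference from this last class did not pass the test (log2 odds ratio 0.29, 95% bounds -0.07 and 0.65, adjusted exact p = 0.166). In the whole lists of 30000 peaks, 795 members were present in every replicate. Of the other 22, replicate 1 lacked 12, replicate 2 lacked 9 and replicate 3 lacked 1.

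**Figure D2:**
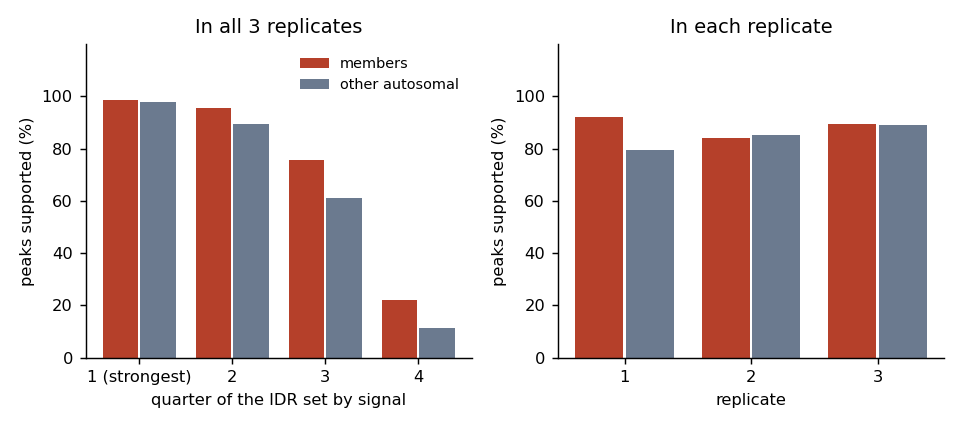
Share of peaks found among the 8424 strongest peaks of all 3 replicates, in 4 equal classes of the IDR set by signal (left), and of each replicate alone (right), for members (red) and other autosomal IDR peaks (grey). In replicate 1 the bars stand at 92.0% and 79.6%, and in replicates 2 and 3 they differ by little.

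The 5 members that the replicates ranked most differently all had a pooled signal below the median, from 96.8 to 170. The member 1018 bp upstream of RabGGTa ranked 3651 in replicate 1, 26171 in replicate 2 and 11792 in replicate 3, with signals of 47.8, 11.4 and 29.6. The one past the end of Sid ranked 1661 in replicate 1 and 20882 in replicate 2, and the one near lncRNA:CR45638 ranked 20514, 2756 and 2278. The members near Sfp78E and Adk3 had rank spreads of 15849 and 15758. None of these 5 was supported in all 3 replicates.

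Intergenic positions near genes were rarer among IDR peaks than among weaker peaks. Relaxed-only peaks are those of the pooled relaxed list that shared less than 50% of either peak with any IDR peak, and the authors label that list as peaks and background. The position rule was met by 12.2% of the autosomal IDR peaks, against 2603 (15.9%) of 16403 autosomal relaxed-only peaks (log2 odds ratio -0.44, 95% bounds -0.56 and -0.32, adjusted exact p = 3.77e-12) and 12.7% of the bases of the arms. Leaving out replicate 2 gave -0.26 and leaving out replicate 3 gave -0.25. Both remained past the threshold (adjusted exact p = 0.000294 and 0.00066). Within the replicates' own lists, 12.4% ± 1.7 of the strongest 8424 peaks met the rule and 15.2% ± 1.6 of the rest (SD, n = 3), lower in each replicate (unpaired exact permutation p = 0.20). Paired within each library, the difference was -2.79 ± 0.10 percentage points (SD of 3 differences, exact paired permutation p = 0.25, the smallest that 3 pairs allow).

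The members were spread unevenly over the bases that meet the rule. There were 59.0 members per Mb of such bases. The arm 3L had 288 members at 82.4 per Mb, 2L had 197 at 54.8, 3R had 199 at 51.1 and 2R had 133 at 46.4. Relaxed-only peaks were also densest on 3L, at 219 per Mb, against 166 to 183 on the other arms. By distance, members were densest close to genes: 73.1 per Mb at 501 to 1000 bp from a start site and 65.4 at 1000 to 2000 bp, but 46.4 at 2000 to 3000 bp, 54.4 at 3000 to 4000 bp and 54.9 at 4000 to 5000 bp. Relaxed-only peaks were spread more evenly, between 167 and 196 per Mb.

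**Figure D3:**
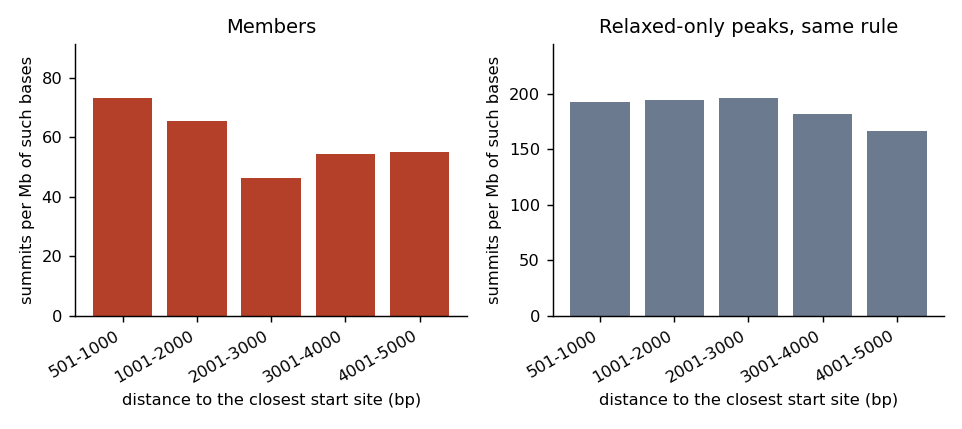
Summits per Mb of intergenic bases in each band of distance (bp) to the closest start site, for members (left) and relaxed-only peaks under the same rule (right), both axes from 0. Members stand at 73.1 per Mb at 501 to 1000 bp and at 46.4 per Mb at 2000 to 3000 bp, while relaxed-only peaks stay between 167 and 196.

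Most members lay upstream of their closest gene. The upstream share was 68.5% of members (95% bounds 65.2 and 71.7), 65.5% of relaxed-only peaks and 64.1% of bases (members against relaxed-only, log2 odds ratio 0.20, 95% bounds -0.04 and 0.44, adjusted exact p = 0.188). The call changed with the peaks kept. Among members in the upper 50% of the IDR set by signal the share was 72.8%, with a log2 odds ratio of 0.50 (adjusted exact p = 0.00703), and it was 0.33 without replicate 1, 0.31 without replicate 2 and 0.34 without replicate 3, past the threshold each time. Gaps between divergently transcribed genes held 29.4% of members and 28.5% of relaxed-only peaks (log2 odds ratio 0.06, 95% bounds -0.19 and 0.31, adjusted exact p = 0.697). Tandem gaps held 423 members and convergent gaps 154.

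The closest gene of a member had a peak at its own promoter more often than the closest gene of a weaker peak. The closest gene also had an IDR summit within 500 bp of one of its start sites for 223 members (27.3%), against 18.1% of relaxed-only peaks (log2 odds ratio 0.76, 95% bounds 0.50 and 1.03, adjusted exact p = 9.76e-08). Of all autosomal genes 20.8% had such a promoter peak. Members and not genes were counted, so a gene closest to several members counts several times. The 223 members had a median signal of 213, and the 594 without such a promoter peak had 169. Across the replicates' own lists the share was 28.3% ± 1.5 among the strongest 8424 peaks and 17.8% ± 3.7 among the rest (SD, n = 3), higher in 3 of 3 replicates (exact permutation p = 0.10, the smallest possible). kay and lola were among the genes with both, while ds, E(spl)malpha-BFM, COX7AL2 and CG31668 had a strong member and no promoter peak. With the promoter window at 1000 bp, in which the members closest to a start count themselves, the log2 odds ratio was 1.59.

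Many members had another peak close by, as far intergenic peaks did too. Another IDR summit lay within 5000 bp of 619 members (75.8%), against 73.1% of intergenic peaks over 5000 bp from a start site (log2 odds ratio 0.20, 95% bounds -0.17 and 0.58, adjusted exact p = 0.442). Without replicate 1 this difference passed the test, with 71.6% against 63.6% (log2 odds ratio 0.53, adjusted exact p = 0.0233), and without replicate 2 it did so narrowly (0.41, adjusted exact p = 0.05). The members fell into 551 gaps between genes, of which 396 held a single member and 155 held the other 421. Of all members, 17 repeat the deposited interval of another IDR peak with a summit of their own. The gap between CG17154 and vers, 26875 bp long, held the most, with 7 members of pooled signal 94.3 to 724. The gap between the divergent genes Dyro and CG7573 held 6, with summits between 11296432 and 11298736 on 3L and signals of 155 to 801. The gaps CG18404 to lncRNA:CR46113, lncRNA:CR45036 to lncRNA:CR42755, lncRNA:CR45632 to Gr93a and CR33283 to CG12984 held 6 each.

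The closest start site was that of a protein-coding gene for 481 members, of a non-coding RNA gene for 306 and of a tRNA gene for 23. Per Mb of bases closest to genes of that kind, this came to 52.2, 74.7 and 114 members. Relaxed-only peaks under the same rule stood in the same order, at 181, 208 and 278 per Mb. In all, 586 of 15233 autosomal genes (3.85%) were closest to a member, 158 of them to 2 or more. The genes with the most were lncRNA:CR45737 with 7 and CG13898 and Dyro with 6 each.

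Genes of signalling pathways were often the closest. Of 46 listed signalling genes, 12 were closest to a member (26.1%, against 3.85% of all autosomal genes), with 264 members per Mb of their own intergenic bases against 59.0 overall. The list was described and not tested, since it was chosen with earlier results of these data known. Beside the kay member, the strongest were 991 bp upstream of ex, which encodes the Hippo pathway protein Expanded, and 2 in the gap between lncRNA:CR45737 and sty, the gene of the receptor tyrosine kinase inhibitor Sprouty. The ex member had signals of 162, 306 and 310 in replicates 1, 2 and 3, or 775 pooled. The 2 sty members had pooled signals of 774 and 720.

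Ecdysone response genes were also closest to members more often than the background share. Of 31 listed, 6 were closest to a member (19.4%), with 249 members per Mb. The hid members were the strongest by flanking gene, and a member 1524 bp upstream of ImpE2, an ecdysone-inducible gene of imaginal discs, had signals of 68.0, 196 and 224 in replicates 1, 2 and 3. Of 22 growth and insulin genes, 4 were closest: foxo, a transcription factor that insulin signalling restrains, scyl and chrb, which encode inhibitors of TOR signalling, and Sesn, which encodes Sestrin. This gave 410 members per Mb, but on only 14630 bases. The foxo member had a pooled signal of 467. The scyl member of 314 was not in the list of replicate 2, although a neighbouring summit was. Sesn lies outside the 4 strongest of its list and was named after its value was seen.

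The disc patterning, muscle, cuticle, nervous system, stress, germline and ribosomal protein lists each had at most 5 genes closest to a member. Of 43 disc patterning and selector genes, 5 were closest (11.6%), at 42.1 members per Mb. The strongest members beside these genes had signals of 224, both between lncRNA:CR43681 and salm, a spalt transcription factor gene of wing patterning. The muscle list had 4 of 17 (23.5%) and 146 per Mb, with how among them at a pooled signal of 286. Its share was above the 19.4% of the ecdysone list. The cuticle and epithelium list had 4 of 36 (11.1%) and 110 per Mb, and the nervous system list 3 of 24 (12.5%) and 77.1 per Mb. Of all autosomal genes 3.85% were closest, near the shares of the fat body and immunity list (4.55%) and the chromatin and architectural list (3.70%). The strongest of the nervous system members lay 2387 bp upstream of dsx, the sex determination gene, at 341. Of 27 heat shock and stress genes none was closest, and of 12 germline genes none. Only 11296 and 5612 bases under the rule were closest to these genes, too few to read the lack of members as an absence. Of 73 ribosomal protein genes 1 was closest, although 56 of the 73 had an IDR peak at the promoter.

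Testis genes, the known targets of the meiotic arrest complex, had a few members nearby. Of 36 listed testis and spermatid genes, 4 were closest to a member (11.1%), at 166 members per Mb, and 1 had a promoter peak (2.78%). Of all autosomal genes 3.85% were closest, at 59.0 members per Mb, and 20.8% had a promoter peak. The testis values rest on 7 members and 42122 bases and were not tested. The strongest member beside a testis gene lay past the end of CycB, 3342 bp from its start. CycB encodes cyclin B, which dividing cells of many tissues use. The signals of this member were 231, 317 and 382 in replicates 1, 2 and 3. The next were 1108 bp upstream of soti, a spermatid gene, at a pooled signal of 350, and 4009 bp upstream of Mst87F, a sperm protein gene, at 284. The tRNA list had 15 of 266 genes closest to a member (5.64%), at 114 members per Mb, both below the values of the testis list.

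A trough of G and C lay at the summit of most members. The central 100 bp held 31.5% ± 7.7 G+C and the flanks, the outer 50 bp within 200 bp on either side, 44.5% ± 8.8 (SD over 817 members). The centre was lower in 693 members (84.8%; exact binomial test, two-sided, p = 7.35e-106). Relaxed-only peaks had 36.7% at the centre and 41.8% in the flanks, and the centre was lower in 62.2% (members against relaxed-only, log2 odds ratio 1.76, 95% bounds 1.46 and 2.06, adjusted exact p = 9.75e-36). Peaks within 500 bp of a start site were like these, with 62.7% (log2 odds ratio 1.73, adjusted exact p = 5.55e-35). Intron peaks had 84.0% and far intergenic peaks 88.6%, and neither difference from members passed the test (log2 odds ratios 0.10, 95% bounds -0.22 and 0.41, and -0.48, 95% bounds -0.97 and 0.02). This comparison was added after the data were seen.

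The trough held at every level of signal and in every library. Centre minus flanks was -15.2 percentage points in the strongest of 4 equal classes of members and -12.9, -11.9 and -12.1 in the next ones. In the replicates' own lists it averaged -12.0 ± 0.2 points among the strongest 8424 peaks, of those under the rule, and -3.17 ± 0.83 among the rest (SD, n = 3, a deeper trough in 3 of 3 replicates, exact permutation p = 0.10, the smallest possible). Exceptions among the 15 strongest were the DNAlig3, lncRNA:CR43650 and lola members. They had 25%, 43% and 29% G+C at the centre and 17%, 27% and 27% in the flanks. The DNAlig3 member lay inside its gap of 437 bp. Nearly all members, 815 of 817, lay in DNA where at least 90% of 32-base strings occur once in the genome.

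**Figure D4:**
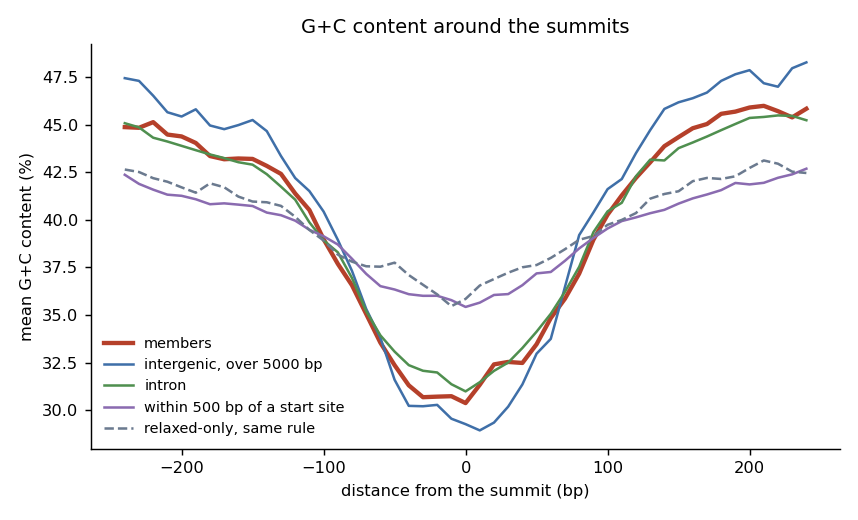
Mean G+C content (%) against distance from the summit (bp) for members (thick red), other classes of autosomal IDR peaks and relaxed-only peaks under the same rule (dashed). Members fall to 30.4% at the summit, near the intron and far intergenic curves and below the promoter and relaxed-only curves (35.4% and 35.8%). At 240 bp on either side members stand at 44.9% and 45.8%, above the promoter and relaxed-only curves.

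Known motifs differed little between members and weaker peaks. Of 34 listed motifs looked for on either strand up to 100 bp from the summit, 0 were higher in members (0%; 2, TTTGAA and GAANNTTC, at an unadjusted p under 0.05 in Fisher's exact test) and 3 were lower (8.82%). Lower were GCCAT of Pho (22.8% of members and 31.3% of relaxed-only peaks, log2 odds ratio -0.63, adjusted exact p = 7.88e-05), CGCG (13.0% and 18.1%) and CACACACA (1.47% and 3.50%). Compared within 5% classes of G+C content none was called, and CGCG turned to a log2 odds ratio of 0.069. Of all 66174 windows of the same length in the same intergenic DNA, 37.5% held GCCAT, 20.4% CGCG and 4.48% CACACACA. The windows held 40.8% G+C, against a median of 33.3% within 100 bp of member summits, and were not matched in composition.

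Core promoter strings were rarer in members than in promoter peaks. Here 7 of 34 motifs were lower (20.6%) and 1 higher (2.94%). TATCGATA, the DRE bound by Dref, was in 0.49% of members and 5.79% of promoter peaks (log2 odds ratio -3.64, adjusted exact p = 3.7e-12). GGTCACAC of M1BP was in 1 member, or 0.122%, and in 3.70% of promoter peaks. Also lower in members were CGATA of BEAF-32, which overlaps the DRE, the TGTTTAC of forkhead proteins, CGCG, the E-box CAGCTG and the GAGAG of GAGA factor. The last of these lost its call with any replicate left out, with log2 odds ratios of -0.39 without replicate 1, 0.0057 without replicate 2 and -0.14 without replicate 3, against -0.48 with all 3. GCATACTT of Su(Hw), an insulator protein, was higher, in 2.82% of members and 1.08% of promoter peaks (adjusted exact p = 0.00947). Against intron peaks 0 were higher (0%; 2 at an unadjusted p under 0.05 in Fisher's exact test) and only TGTTTAC was lower (2.94%). Against far intergenic peaks 0 of 34 passed in Fisher's exact test in either direction (0% and 0%), with 2 higher and 1 lower at an unadjusted p under 0.05.

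Within members, 4 of 34 motifs were commoner at the centre than in flanks of the same total length (11.8%) and 7 were rarer (20.6%). TTTGAA, the cell cycle homology element bound by the somatic dREAM complex, lay in the central 100 bp of 161 members and in the flanks of 80 (adjusted exact p = 3.84e-07). The others were TGATAA of GATA factors, TAATTA of homeodomain proteins and GAANNTTC of heat shock factor. All 4 hold more A and T than G and C. Of all strings of 6 bases, 358 were commoner at the centre (17.2%) and 638 rarer (30.7%). Among the 192 strings with 1 G or C, the median log2 ratio of centre to flank was 1.11, and TTTGAA, at 1.14, was number 90. TTTGAA was thus near the middle of the strings of its own composition. TGATAA, at 1.03, was number 121 of the same 192. TAATTA, at 0.90 against a median of 1.17, was number 31 of the 36 strings without G or C. GAANNTTC is longer than 6 bases and was not ranked.

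Across all strings of 6 bases, reverse complements joined, 134 were commoner in members than in relaxed-only peaks (6.44%) and 174 were rarer (8.37%). Of the 134, 118 had at most 2 G or C. Without replicate 1 the calls in both directions came to 188, against 308 with all replicates. Compared within classes of G+C content, 11 strings were higher (0.529%) and 2 lower (0.0962%). Of these 11, 3 are parts of 1 longer string, TCAGTGCA. They are AGTGCA, the overlapping CAGTGC, and TCAGTG, held as CACTGA in the joined list. The first, AGTGCA, was in 26.4% of members and 18.4% of relaxed-only peaks. Within 50 bp of the summit all 3 turned, with log2 odds ratios of -0.21 for AGTGCA, -0.18 for CACTGA and -0.22 for CAGTGC. Sites of TCAGTG lay in the central 100 bp of 53 members and at 50 to 100 bp from the summit in 133.

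TCAGTG mostly read away from the summit. Of 175 members with it within 100 bp of the summit, 18 had it only on the strand that reads towards the summit, 6 had both, and the rest had it only on the strand that reads away, which was 89.3% of those with 1 direction (log2 ratio 3.03, exact binomial test, two-sided, adjusted over 2016 strings, p = 4.72e-24). In all, 72 of the 2016 strings that differ from their own reverse complement had such a bias (3.57%). Among them were parts of TCAGTGCA and T-rich strings, beside others of neither kind. CAGTGC read away in 140 members and towards in 23, CAGTGT in 109 and 21, TTTCTC in 162 and 38, and TTTTTT in 260 and 98. This scan was added after the data were seen.

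The direction was shared with other classes of peaks and with weaker ones, so it does not mark the members alone. TCAGTG read away only in 85 and towards only in 14 far intergenic peaks, 327 and 95 intron peaks, 220 and 119 peaks within 500 bp of a start site, and 170 and 58 peaks on X. In relaxed-only peaks under the same rule the counts were 249 and 114. Among members the counts in 4 equal classes of signal, strongest first, were 44 and 2, 38 and 5, 35 and 4, and 34 and 7. In the strongest 8424 peaks of replicates 1, 2 and 3 under the same rule they were 149 and 27, 125 and 18, and 136 and 26. No test was made between the classes.

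Most strings that read away lay within a band past the summit. In the direction in which TCAGTG reads, 261 sites lay past the summit within 200 bp and 65 before it. The median of the 261 was 83 bp, with quartiles of 60 and 111 bp, against 92.5 bp with quartiles of 48 and 132 bp in relaxed-only peaks. The band from 60 to 79 bp held 57 sites, or 69.8 per 1000 members, and that from 80 to 99 bp held 54.

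**Figure D5:**
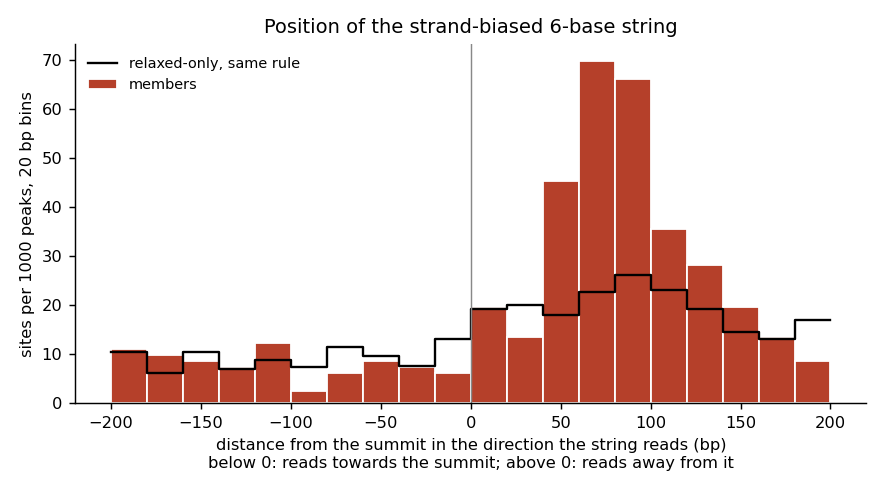
Sites of the 6-base string with the strongest direction per 1000 peaks, in bins of 20 bp of distance from the summit in the direction the string reads, for members (red bars) and relaxed-only peaks under the same rule (black line). Member sites reach 69.8 per 1000 at 60 to 79 bp past the summit, while sites that read towards the summit (below 0) stay at or under 12.2.

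The letters beside the string extended it. Around 180 sites that read away, T took 72.8%, 78.3% and 72.8% of the positions 6, 5 and 4 before the string, position 3 before was T in 50.6% and C in 38.3%, and T took 71.7% of position 2 before. After TCAGTG the first letter was C in 45.6% and T in 43.3%, and the next was most often A. The extended string, TCAGTG with T at positions 6, 5, 4 and 2 before it, was in 67 members (8.20%), 65 of which had it only reading away. It was read off the members' own sites, so its share and direction in members were partly fixed by that choice. They are described here and not tested. It was in 104 of 2603 relaxed-only peaks, 10.5% of far intergenic peaks, 6.79% of intron peaks and 1.94% of peaks within 500 bp of a start site. Of 66174 windows of the same intergenic DNA, 0.603% held it. These windows are richer in G and C than members and were not matched in composition. TTTTTT alone was in 51.4% of members and 34.9% of windows.

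Seen from the genome, a part of the matches of the extended string lay at a peak. The intergenic bases that meet the position rule hold 440 matches of it, of which 69 (15.7%) lay within 100 bp of a member and 112 (25.5%) within 100 bp of a relaxed-only summit. Because the string was read off member sites, its share near members was partly fixed in advance. The bases within 100 bp of a member make up 1.15% of that DNA, and those within 100 bp of a relaxed-only summit 3.69%. Of 6225 matches of TCAGTG alone, 3.13% lay within 100 bp of a member, and of 74289 matches of TTTTTT 1.54% did. TCAGT is also how the initiator of Drosophila core promoters begins, an element at the transcription start of many genes, but by the position rule no annotated start lies within 500 bp of a member. Whether transcription starts at these strings was not tested. Genes next to members with TCAGTGCA included E(spl)malpha-BFM, aop, which encodes the Ets repressor Yan, srp, the fly GATA gene of fat body and blood cells, Blimp-1, an ecdysone-induced repressor gene, chinmo and dally. They were named after these sites were seen.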

How the data were processed

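The deposited dm6 peak lists of anti-GFP ChIP-seq were used: an IDR set, a pooled relaxed list and 1 relaxed list of 30000 peaks per replicate. The signal column is the authors' deposited score against 1 shared control. Every IDR peak carries 1 deposited -log10 q-value, 4.28, which was not used. Fragments of 200 to 800 bp were sonicated, per the labels. Not given in the sources used here were aligner, caller and IDR threshold. Depth is unknown, and the dm3 lists were not used here.

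Genes came from Ensembl release 115 and bases from RefSeq, both of the assembly dm6 describes. Values of 1 library were set against each other unpaired and, added after seeing the data, paired. Shares were compared by two-sided Fisher's exact tests, and G+C classes of 5% by a Cochran-Mantel-Haenszel test. Benjamini-Hochberg adjustment of p-values ran over 7 position tests, 11 support tests, 34 motifs (102 for the other classes), 2080 or 2016 strings of 6 bases. The steps were tested on simulated data. Software was matplotlib 3.10.9, scipy 1.17.1, pandas 2.3.3 and numpy 2.4.6 under Python 3.11.15.

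Members and lists were chosen with earlier results of these data known. Named were the 15 strongest members, the strongest per arm and 3 per distance band, up to 4 per list, the 5 fullest gaps, the 5 largest rank spreads and 2 members per bound. The microRNA list and cut of the nervous system list matched no annotated gene. Alternatives were the upper 50% by signal, other distances and windows, coding genes only and leaving out each replicate. Leaving out a replicate was a filter on IDR peaks, which had to be supported in both others. The support test instead counted support in both others over all autosomal IDR peaks. No peaks were called again. Base composition, support by signal class and strand were added after seeing the data.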

Additional observations from a re-analysis of the deposited data

How the results depend on the processing

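Of 156 values of 15 main results under other settings, 121 were classed as the same. For a single test this means that direction and call were kept. For a count of calls it means only that the number stayed similar, whichever strings or motifs were called. Strings of 6 bases called against relaxed-only peaks (308) numbered 109 in the upper 50% by signal, 167 with coding genes only, 157 at 501 to 3000 bp, 38 in windows of 200 bp, 13 within G+C classes and 8 against the strongest 1 in 3 relaxed-only peaks, an alternative chosen after seeing the data, and 188 to 300 with each replicate left out. Strings with a direction (72) numbered 44, 38 and 34 in the first 3 of these, 2 in windows of 50 bp, 130 in windows of 200 bp and 49 to 53 with each replicate left out. TCAGTG reading away had a log2 ratio of 1.20 (adjusted exact p = 0.512) within 50 bp. Listed motifs called against relaxed-only peaks (3) numbered 5, 0, 0 and 1 in windows of 50 bp, windows of 200 bp, G+C classes and against the strongest 1 in 3. Those called against other classes (9) numbered 4, 14 and 14 in the upper 50%, with coding genes only and in windows of 200 bp. Those called at the centre (11) numbered 7 with the central 50 bp.

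Reversed were divergent gaps at 501 to 3000 bp (log2 odds ratio -0.032), neighbouring summits with coding genes only (-0.15), strong peaks at 501 to 3000 bp (0.0057), support in replicate 2 (-0.047) and in replicate 3 (-0.22) among peaks that both other replicates support (1.80 in replicate 1), a comparison added after seeing the data, GAGAG against promoter peaks without replicate 2 (-0.39 to 0.0057 over the 3), CGCG within G+C classes (0.069), and AGTGCA (-0.21), CACTGA (-0.18) and CAGTGC (-0.22) in windows of 50 bp. With each replicate left out, support ran from 0.020 to 0.87 and lost its call without replicate 1, strong peaks from -0.38 to -0.13, neighbouring summits from 0.27 to 0.53 and the upstream side from 0.31 to 0.34; the upstream side was 0.50 in the upper 50%. The cause was not tested. Differences paired within each library had an exact p of 0.25 wherever all 3 libraries had 1 sign, the smallest that 3 pairs allow. Depth is unknown, so a peak missing from a list may lie below rank 30000.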
